A study of Drosophila melanogaster with 6 samples.

Results

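The label taken up in the middle of S phase was compared, window by window, with the average of the label taken up early and late in S phase. For each replicate number the reference, called the blend here, was the plain mean of the Early S and the Late S value of that number in each window, with a weight of 0.5 for each. Windows span 10 kb and overlap, with a new one every 2.5 kb, and so have reads in common with their neighbours. All windows with a value above 0 in at least 1 library were used, which were 53434 of 55900, and the other 2466 were at 0 in all 6 libraries. Values are in RPKM, reads scaled by the length of the window and the depth of the library. The departure of Mid S is log2 of Mid S over the blend, each after adding 0.0341 RPKM, so that 0 means Mid S equal to the average, and the difference is understated in windows with few reads.

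The cells were Kc, a female Drosophila melanogaster line of embryonic origin, with the genotype given as se/e. Growing cells took up the thymidine analogue BrdU at 50 µg/ml for 1 hour, were fixed in ethanol and stained with propidium iodide, and were sorted by DNA content into early, middle and late S phase. DNA that carried BrdU was pulled down with an antibody and sequenced, giving 2 libraries per fraction. The 3 fractions are named Early S, Mid S and Late S below. All 6 libraries come from this 1 line with the same pulse, and there was no unsorted or unlabelled sample among those used. For Mid S replicate 1 the fraction is known from the title, as its source label leaves it out. No label says that replicates were separate cultures, so p-values measure only how far these libraries spread, and that spread may be technical. In such sorted bulk samples, a lower value can mean fewer cells with label in a window or less label per cell, and these cannot be told apart.

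Chromosomes of higher eukaryotes are copied in a set order. Origins in open, transcribed chromatin tend to fire early in S phase, while silent domains and the heterochromatin around centromeres are copied late, and forks travel from early domains into the neighbouring DNA in between. DNA copied in the middle of S phase should be labelled most in cells of middle DNA content, whereas a middle fraction made of a mixture of early and late cells would carry the average of their label.

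The libraries held 1384200 reads (Late S replicate 2) to 2936097 reads (Early S replicate 1), and their median window held 98 to 218 reads. Up to 3 reads are allowed by a count of 0, or 0.102 to 0.217 RPKM depending on the library, for counting error only. The mean over tested windows was 7.48 or 7.49 RPKM in every library, as the scaling to library size sets it. Departures above and below the blend therefore balance in RPKM, and the mean of Mid S minus the blend was 0.000181 RPKM. Mid S was the most even fraction. The SD over windows was 3.77 and 3.67 RPKM in its replicates 1 and 2, against 5.84 and 6.24 in Early S and 4.91 and 4.34 in Late S. The medians of Mid S were also the highest, at 7.78 and 7.72 RPKM, against 6.37 and 6.08 in Early S and 6.68 and 7.08 in Late S.

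Mid S resembled the average of the other fractions far more than it resembled either of them, but much less than it resembled its own replicate. The blend accounted for 61.7% of the variance of Mid S over windows in replicate 1 and for 62.2% in replicate 2, a mean of 61.9% ± 0.347 (SD, n = 2). The other Mid S library accounted for 87.8% ± 0.447 in the same way (SD, n = 2). Early S alone or Late S alone did worse than a constant, with mean values of -71.9% and -54.8%. Windows at or near 0 in all fractions carry part of this likeness. With the tenth of windows of lowest mean signal left out, the blend accounted for 37.6%. The value of the other Mid S library was not recomputed on that set, so 37.6% cannot be set against 87.8%. Pearson's r over windows, which are not independent, was 0.797 between Mid S and the blend, 0.593 between Mid S and Early S and 0.406 between Mid S and Late S, as means of the replicates.

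The weights that fitted Mid S best were close to equal. The best weight for Early S was 0.531 in replicate 1 and 0.432 in replicate 2, a mean of 0.482 ± 0.07 (SD, n = 2), and the replicates lay on opposite sides of 0.5. Fitting the weights raised the matched variance only to 63.3% ± 1.57, and the weights fitted in the other replicate number gave 58.4% ± 1.72 (SD, n = 2). With free weights and a constant, Early S entered at 0.435, Late S at 0.445 and the constant at 0.892 RPKM, and the fit matched 64.4% ± 1.67 (SD, n = 2). No mix of the fractions with fixed weights over the genome came near the 87.8% of the other Mid S library. Both measures moved with the scaling. The weight was 0.614 after quantile normalization, and the matched variance with equal weights was 54.2% after it and 38.1% with libraries divided by their medians.

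Single windows departed from the blend in both directions. In limma, with Benjamini-Hochberg adjustment over all 53434 windows, Mid S was above the blend in 7671 windows, 14.4% of those tested, and below it in 9389, 17.6%. Together 31.9% were called at an adjusted p of 0.05, and 36374 windows (68.1%) were not, so that a departure there was not detectable with these libraries. Called windows above the blend held 10.9 and 10.6 RPKM in Mid S replicates 1 and 2, against a blend of 7.88 and 7.73 (medians over windows). Their Early S and Late S medians were alike, with 7.87 and 7.34 RPKM in Early S and 7.43 and 7.73 in Late S. These medians pool windows that lean to either side. In the means of both replicates, Early S made up 0.4 to 0.6 of the sum of Early S and Late S in 4130 of them. It made up 0.2 to 0.4 in 1703 and 0.6 to 0.8 in 1827. Called windows below the blend held 5.07 and 5.50 RPKM in Mid S against a blend of 8.78 and 8.65. Departures below were the larger ones, with a median of -0.70 and an extreme of -3.28 on the log2 scale, against a median of 0.46 and an extreme of 1.79 above. The smallest departure called was 0.28 in size.

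These counts rest on having both replicates of each fraction and on how the libraries are scaled. Leaving out Mid S replicate 1 left 427 windows above and 2536 below, and leaving out Mid S replicate 2 left 2718 and 6222. Leaving out any 1 Early S or Late S library removes the blend of its number, and limma then called 0 windows, with 5753 above and 6427 below at an unadjusted p under 0.05 without number 1, and 5243 and 6458 without number 2. Of all calls 45% were above the blend. This share was 39.1% after quantile normalization and 3.98% with libraries divided by their medians, which moves the median departure of all windows by -0.24. Against the geometric mean of Early S and Late S, an average that never exceeds the linear one, 9944 windows were above and 799 below, so that 92.6% of the calls were above.

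The departure itself was shared by both replicate numbers, which have no library in common. Over all windows Pearson's r between the departures of replicates 1 and 2 was 0.639 and Spearman's rho 0.709, and 78.3% of windows had the same sign. With the tenth of windows of lowest signal left out, r was 0.809 and rho 0.769. Windows are not independent, so no p is given. Of 4629 windows that lay at least 0.5 above the blend in replicate 1, 90.2% lay above it in replicate 2, with a median there of 0.40. Of 10494 that lay at least 0.5 below it, 90.6% lay below it in replicate 2, with a median of -0.61. Starting from replicate 2, the shares were 86.0% of 4174 windows and 92.7% of 8655. Counting error alone gives the departure of a window a median SD of 0.124 in replicate 1 and 0.149 in replicate 2. The SD between the replicates was 0.206, taken over all windows from the median absolute difference, scaled as for a normal distribution. It is not a median of SDs per window, so it cannot be set directly against the counting SDs.

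**Figure D1:**
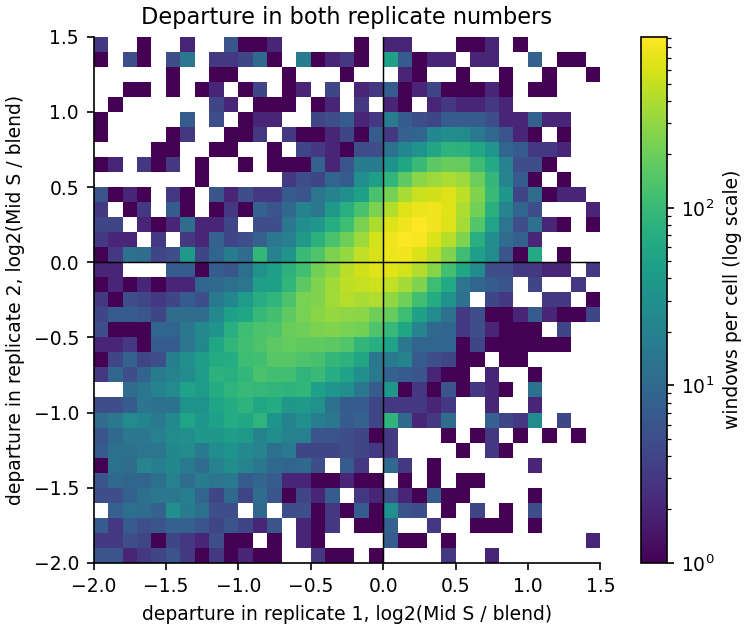
Departure of Mid S from the blend in replicate 1 (horizontal axis) and replicate 2 (vertical axis), both as log2 of Mid S over the blend, with the number of windows per cell as colour on a log scale. Windows lie along the diagonal, with r of 0.639 over all windows, and the tail below 0 is longer than the one above.

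Timing ordered the departures. Windows were sorted by their Early S share, Early S over the sum of Early S and Late S, measured in the other replicate number so that the noise of the share and of the departure come from different libraries. In windows of middle timing, with a share of 0.4 to 0.6, Mid S held 9.49 and 9.24 RPKM in replicates 1 and 2, more than Early S (7.90 and 7.34), Late S (7.38 and 7.80) or the blend (7.82 and 7.70). In the earliest windows, with a share of at least 0.8, Mid S held 6.28 and 7.17 RPKM against a blend of 9.13 and 10.2, and in the latest, with a share of at most 0.2, it held 4.46 and 5.10 against 7.20 and 6.65. Mid S was thus above the average where Early S and Late S were about equal and below it where either of them dominated.

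The median departure was 0.30 and 0.28 in windows of middle timing, a mean of 0.289 ± 0.0176, or 22.2% above the blend. It was -0.47 and -0.41 in the earliest windows, a mean of -0.441 ± 0.0398, which is -26.4% relative to the blend, and -0.62 and -0.37 in the latest, a mean of -0.491 ± 0.176 (SD, n = 2 in each). Middle windows exceeded the earliest by 0.731 ± 0.0573 and the latest by 0.780 ± 0.193 (SD, n = 2). These rest on 2 values each, for which an exact test over replicate pairs cannot give a p below 0.5, so none was run. Both differences were above 0 in both replicates under the 10 alternatives that recompute them per replicate, and also in the combined files, which give 1 value each, with ranges over all 11 of 0.310 to 0.790 and 0.231 to 1.335. The size of the excess in middle windows depended on the scaling. With libraries divided by their medians it was 0.045 and 0.049 in replicates 1 and 2.

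By steps of 0.1 in Early S share, the departure rose from the latest windows to the middle and fell again towards the earliest. In replicates 1 and 2 it was -0.97 and -0.66 at a share of 0 to 0.1, -0.48 and -0.27 at 0.1 to 0.2, and then -0.01 and 0.12 at 0.2 to 0.3. It stood at 0.30 in both replicates at 0.4 to 0.5 and at 0.30 and 0.25 at 0.5 to 0.6. Mid S and the blend were level at 0.7 to 0.8, where the mean departure was 0.00061, and the departure fell to -0.42 and -0.36 at 0.8 to 0.9 and to -1.0 and -0.88 at 0.9 to 1. The replicates lay close together on the early side, while on the late side replicate 1 lay lower than replicate 2 in each of the 4 bins below a share of 0.4.

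**Figure D2:**
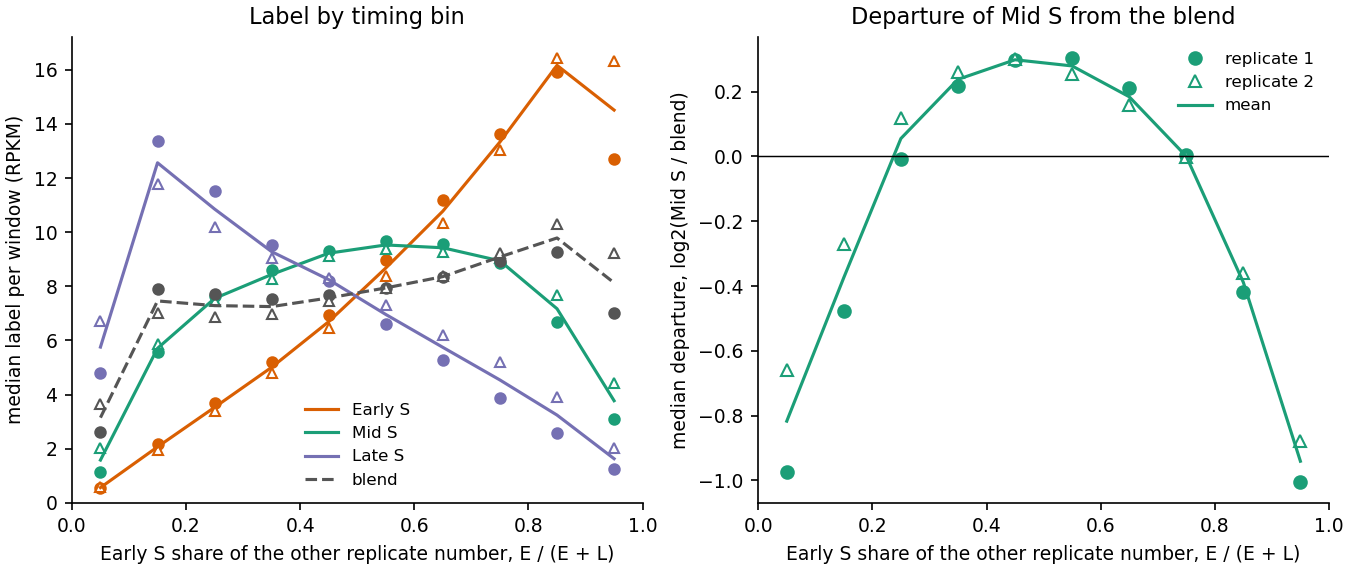
Left, median label in RPKM of Early S, Mid S, Late S and the blend in 10 bins of the Early S share of the other replicate number; right, the median departure of Mid S from the blend on the log2 scale in the same bins. Filled circles are replicate 1, open triangles replicate 2 and lines their mean; Mid S lies above the blend from a share of 0.3 to 0.7 and below it at both ends.

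Seen as a position between the other fractions, Mid S lay next to the lower of them at both ends of the timing scale. With Late S set at 0 and Early S at 1, the median position of Mid S was 0.783 ± 0.0598 at a share of 0 to 0.1 and 0.662 ± 0.0573 at 0.1 to 0.2, nearer to the low Early S level. It was 0.50 ± 0.0022 at 0.7 to 0.8, 0.318 ± 0.00531 at 0.8 to 0.9 and 0.187 ± 0.0103 at 0.9 to 1 (SD, n = 2 in each), nearer to the low Late S level. An equal blend would sit at 0.5 throughout.

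The called windows followed the same order. Sorted by the share in the means of both replicates, which uses the same libraries as the calls, 37.3% of windows at a share of 0.4 to 0.5 and 36.1% at 0.5 to 0.6 were called above the blend, against 14.4% of all windows. The share called above was 0.025% at 0.1 to 0.2 and 0.20% at 0.8 to 0.9. Below the blend, 59.6% of windows were called at a share under 0.1 and 72.0% at 0.9 and over, against 17.6% of all windows and 1.04% of those from 0.4 to 0.6.

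The shape in the middle was kept when the average was taken on a log scale, but the deficit at the ends was not. Against the geometric mean of Early S and Late S the departure was 0.314 ± 0.0218 in middle windows, 0.0829 ± 0.180 in the latest and 0.00353 ± 0.0800 in the earliest (SD, n = 2), where the replicates had opposite signs in both outer groups. At a share of 0.9 to 1 it remained below 0 in both replicates, at -0.28 and -0.28. Of the 799 windows called below the geometric mean, 464 (58.1%) were in the earliest group and 101 in the latest.

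A blend with weights from 0 to 1 cannot lie outside the range of Early S and Late S in a window. Mid S was above both in 21.8% of windows in replicate 1 and in 22.3% in replicate 2, and 7977 windows (14.9%) were above both in both replicates. In these the medians were 10.2 and 9.99 RPKM in Mid S, 7.53 and 7.13 in Early S and 7.32 and 7.59 in Late S. Mid S was below both in both replicates in only 438 windows (0.820%), of which 130, or 29.7%, were on pericentric scaffolds and U, sequences that held 10.5% of the tested windows. Of these 130, 76 were on U, where the median Mid S level was 0.0714 and 0.101 RPKM, below the 3-read limit. In 35652 windows (66.7%) Mid S stayed within the range in both replicates. Where Early S and Late S are close, this range is narrow against counting error. Of the windows above both in replicate 1, 68.4% were above both in replicate 2, and of those below both, 26.7% were below both. With libraries divided by their medians, 2362 windows were above both and 1607 below both.

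On the arms the excess of Mid S lay where early and late domains meet. Early S and Late S levels, smoothed over 9 windows, crossed at 708 places in replicate 1 and 752 in replicate 2 along X, 2L, 2R, 3L, 3R and 4. Distances were measured to the crossings of the other replicate number. Within 12.5 kb of a crossing on its late side the departure was 0.35 in both replicates, with 9.78 and 9.59 RPKM in Mid S against a blend of 7.73 and 7.54. Within 12.5 kb on its early side it was 0.30 and 0.28. On the late side it was still 0.32 and 0.33 at 12.5 to 25 kb, 0.13 and 0.20 at 25 to 50 kb, then -0.17 and -0.03 at 50 to 75 kb and -0.45 and -0.29 beyond 200 kb. On the early side it was 0.20 and 0.15 at 12.5 to 25 kb and stayed between -0.13 and 0.06 farther away.

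Far from crossings the median departure thus lay nearer to the blend on the early side than on the late side. The sides were not matched for timing. At 100 to 150 kb Early S and Late S held 13.2 and 3.66 RPKM in replicate 1 on the early side, and 2.59 and 12.8 on the late side. Windows with a share of 0.8 to 0.9 lay at -0.42 and -0.36, so these medians do not show that early windows match the blend. At 100 to 150 kb inside the early side Mid S held 8.82 and 8.68 RPKM against a blend of 8.74 and 9.33, and at the same distance inside the late side 5.78 and 6.16 against 8.10 and 7.53. Of the windows called above the blend there, 61.0% and 62.1% lay within 25 kb of a crossing of replicates 1 and 2, against 26.6% and 27.9% of all their tested windows. Of those called below, 1.69% and 1.65% did. Crossings are found from Early S and Late S levels, so windows near them have a middle share by construction.

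**Figure D3:**
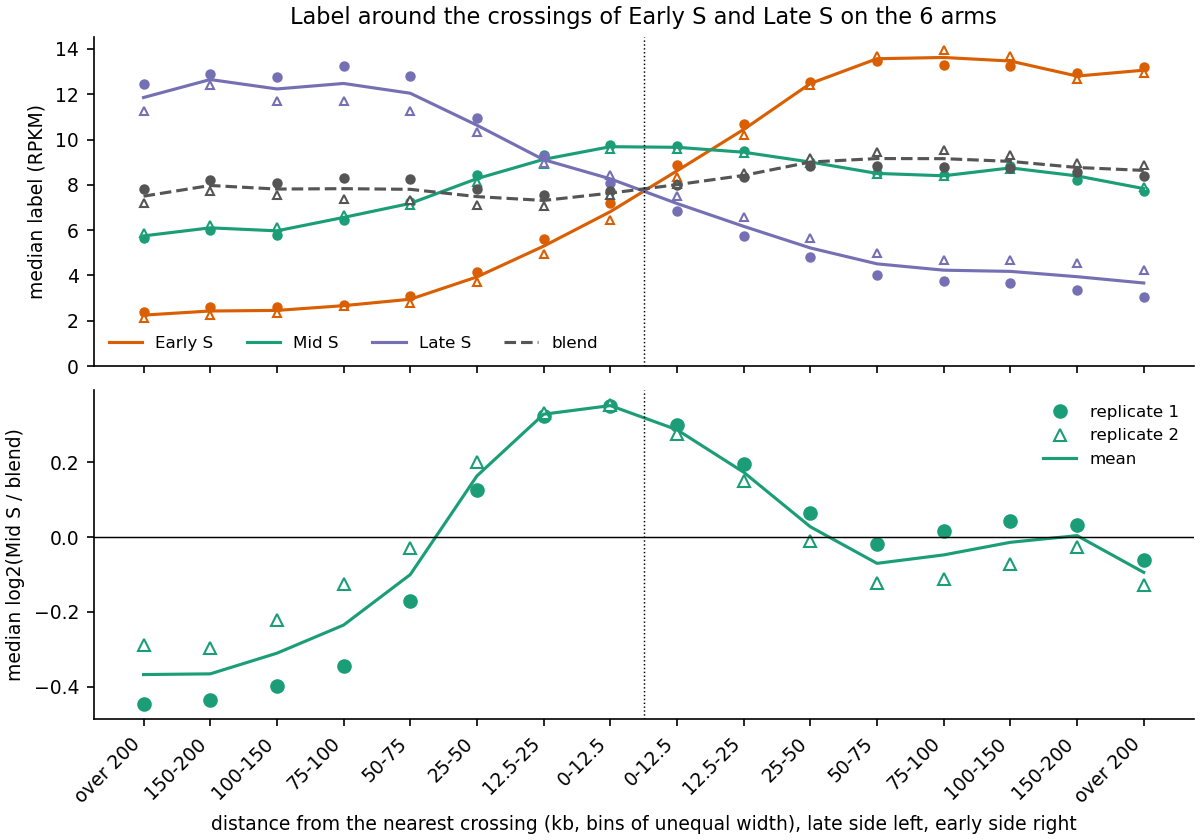
Median label in RPKM (top) and median departure of Mid S from the blend on the log2 scale (bottom) by distance from the nearest crossing of Early S and Late S in kb, late side left and early side right, on X, 2L, 2R, 3L, 3R and 4. Circles are replicate 1, triangles replicate 2 and lines their mean; the departure peaks at 0.35 beside the crossing and falls farther on the late side than on the early side.

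Among windows of middle timing, those on steep gradients had the larger excess. The slope was the change in Early S share over 20 kb to each side. Where it was under 0.1 the departure was 0.29 and 0.23 in replicates 1 and 2, and where it was 0.1 to 0.2 it was 0.28 and 0.27. Replicate 1 thus showed no rise between these groups. Where the slope was 0.2 to 0.3 the departure was 0.32 and 0.29. Where it was 0.4 or more, it was 0.41 in both, over 380 and 472 windows. Middle windows of low slope, where Early S and Late S are level over a stretch, therefore also lay above the blend in both replicates.

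By chromosome, the long arms lay near the blend and the pericentric scaffolds below it. The scaffolds XHet, 2LHet, 2RHet, 3LHet and 3RHet hold assembled heterochromatin from beside the centromeres, and U collects unplaced sequence. Of the 12 sequences with at least 20 tested windows, 4 had a median departure above 0 in both replicates, 6 had one below 0 in both, and 2L and 4 had opposite signs. Arm 2R stood highest among the long arms, at 0.13 and 0.12 in replicates 1 and 2, with 8.74 and 8.53 RPKM in Mid S against a blend of 8.25 and 7.99. It was followed by 3R at 0.08 and 0.09, X at 0.05 and 0.02, 3L at 0.02 in both and 2L at -0.02 and 0.02. This order held in both replicates, although X, 3L and 2L were nearly level in replicate 2, and 2R and 3R lay above those 3 arms in both. With libraries divided by their medians all 12 sequences were below 0, and 2R remained the highest of them, at -0.12.

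The arms differed in how many of their windows were called. Above the blend were 19.8% of windows on 3R, 19.0% on 2R, 14.3% on X, 13.1% on 3L and 12.8% on 2L, against 14.4% of all windows. Below it were 20.8% on 2L, 18.3% on X, 17.8% on 3L, 15.5% on 3R and 11.2% on 2R, against 17.6% of all windows. The share of windows of middle timing was 27.1% on 2R and 25.6% on 3R, the highest among these sequences, and 21.0% on X, 20.01% on 2L and 19.4% on 3L. Chromosome 4, a small and mostly early chromosome rich in repeats, had the highest share called above, 24.1% of 514 windows, and 11.3% below. Its median departure was -0.01 and 0.07, and its Mid S level differed between replicates, at 7.05 and 8.33 RPKM.

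Scaffold 3RHet stood farthest below the blend. Its median departure was -1.24 in replicate 1 and -0.91 in replicate 2, with 0.714 and 1.009 RPKM in Mid S against a blend of 1.89 and 1.94, and Early S at 0.443 and 0.317. There 53.5% of 898 windows were called below, against 17.6% of all windows, and 0.223% above. Its median Early S share was 0.102. Among windows of all sequences, 3RHet included, 59.6% were called below at a share under 0.1 and 38.7% at 0.1 to 0.2. Calls at late timing were not counted by sequence. Whether they were more common on 3RHet than elsewhere at the same share was not tested. The other scaffolds lay between -0.42 and -0.19 in each replicate. These were 3LHet at -0.40 and -0.27, 2RHet at -0.39 and -0.25, 2LHet at -0.42 and -0.19, and XHet at -0.30 and -0.24, which do not differ beyond the spread of their replicates. Their shares called below ran from 10.1% to 18.6%, against 17.6% of all windows, and 1.61% of windows on 3LHet and 0.766% on 2RHet were called above. The median Early S shares of these scaffolds were 0.132 to 0.232. Of their windows, 46.8% (2RHet) to 65.5% (2LHet) had a share of at most 0.2 or at least 0.8. Of all windows, 38.7% were called below at a share of 0.1 to 0.2 and 2.22% at 0.2 to 0.3. The calls on these scaffolds were not matched for timing. U was at -0.86 and -0.69, but its median Mid S level of 0.0714 and 0.101 RPKM was below the 3-read limit. Against the geometric mean 3RHet was at -0.33, 3LHet at -0.0039 and U at -0.25, while XHet, 2LHet and 2RHet were above 0. On 2LHet the departure was 0.0027 with the tenth of windows of lowest signal left out.

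**Figure D4:**
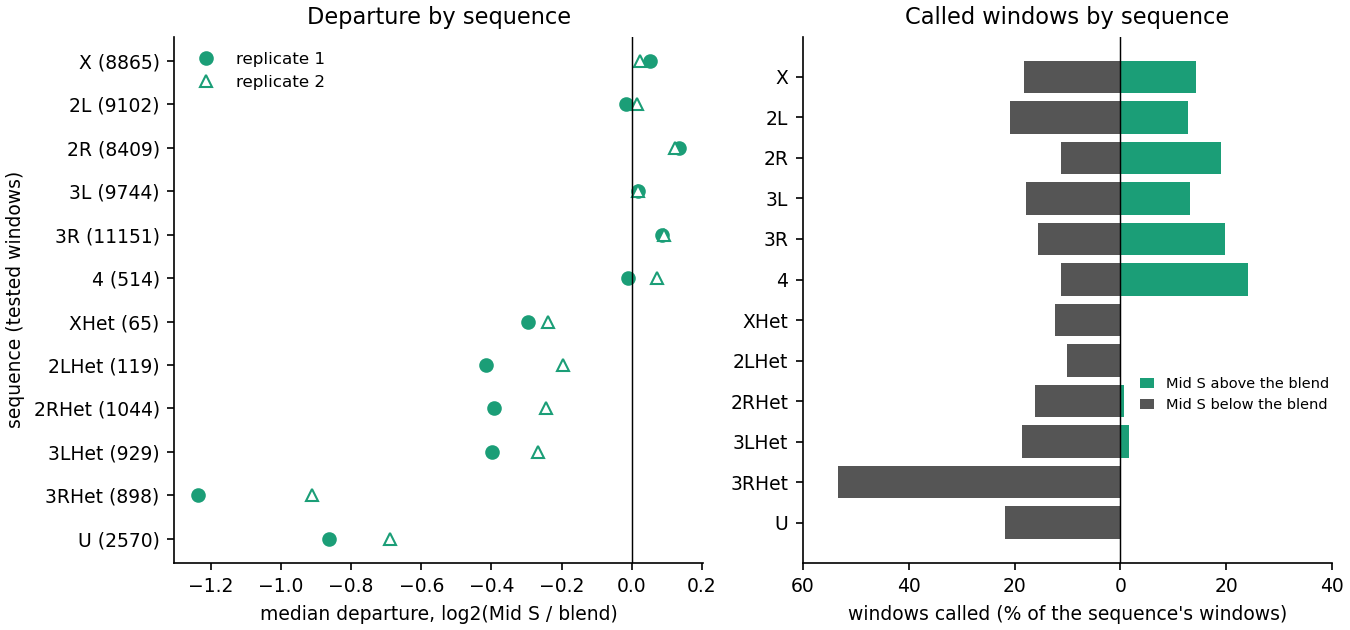
Left, median departure of Mid S from the blend on the log2 scale for 12 sequences with their numbers of tested windows, circles for replicate 1 and triangles for replicate 2; right, percent of windows called below (grey, left of 0) and above (green, right of 0) the blend in limma. The 5 long arms and chromosome 4 lie near 0, the scaffolds and U lie below it, and 3RHet lies lowest, at -1.24 and -0.91.

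In windows of middle timing the long arms were close to each other, and in the outer classes 2R stood apart. The departure of middle windows was 0.318 ± 0.0168 on 2R, 0.301 ± 0.0159 on 3R, 0.299 ± 0.0160 on 2L, 0.266 ± 0.0183 on 3L and 0.265 ± 0.0294 on X (SD, n = 2 in each). On chromosome 4 it was 0.39 and 0.61 over 120 and 67 windows. In the earliest windows 2R was at -0.363 ± 0.0390, and X, 3L and 3R at -0.51 each, with 2L at -0.43 in between. In the latest windows 2R was at -0.37 and -0.16 and 2L at -0.68 and -0.40, so that 2R was the least depleted long arm in both replicates and both outer classes. The order of the arms over all windows thus held within the outer classes for 2R, and not for 3R, which was at -0.53 and -0.25 in the latest windows, close to X at -0.53 and -0.32.

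Within the same class of Early S share the 5 scaffolds together lay lower than the arms from the latest to the middle windows, and higher in the earliest. In the latest windows the 5 scaffolds together were at -0.818 ± 0.0799 and 3RHet at -1.20 ± 0.227, against -0.420 ± 0.170 on the long arms and chromosome 4 together (SD, n = 2 in each). At a share of 0.2 to 0.4 the 5 scaffolds were at -0.219 ± 0.0164, against 0.160 ± 0.0649 on those 6 sequences (SD, n = 2 in each). In windows of middle timing the 5 scaffolds were at 0.127 ± 0.0430, against 0.294 ± 0.0180 on those 6 sequences. At 0.6 to 0.8 the replicates disagreed, with the scaffolds at 0.02 and 0.08 against 0.11 and 0.07. In the earliest windows the 5 scaffolds were at -0.047 ± 0.066 over 77 and 156 windows, with 0.178 and 0.757 RPKM in Mid S, against -0.451 ± 0.0392 (SD, n = 2 in each). Among the latest windows XHet, 2LHet and 3LHet, at -0.53, -0.52 and -0.53, were level with arm 2L at -0.54, so that 3RHet and 2RHet, the latter at -0.73, were the scaffolds below it. For 3RHet the gap was also there in a narrower band. At a share of 0.05 to 0.1, 3RHet was at -1.44 and -1.14, the 5 scaffolds together at -1.16 and -1.01, and those 6 sequences at -0.93 and -0.61. Levels differed greatly beside it, since Mid S in that band was 0.857 and 1.06 RPKM on 3RHet and 4.18 and 4.84 on the 6 sequences. The part of low signal, and of reads that align to several places, in the values of the scaffolds was not tested.

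**Figure D5:**
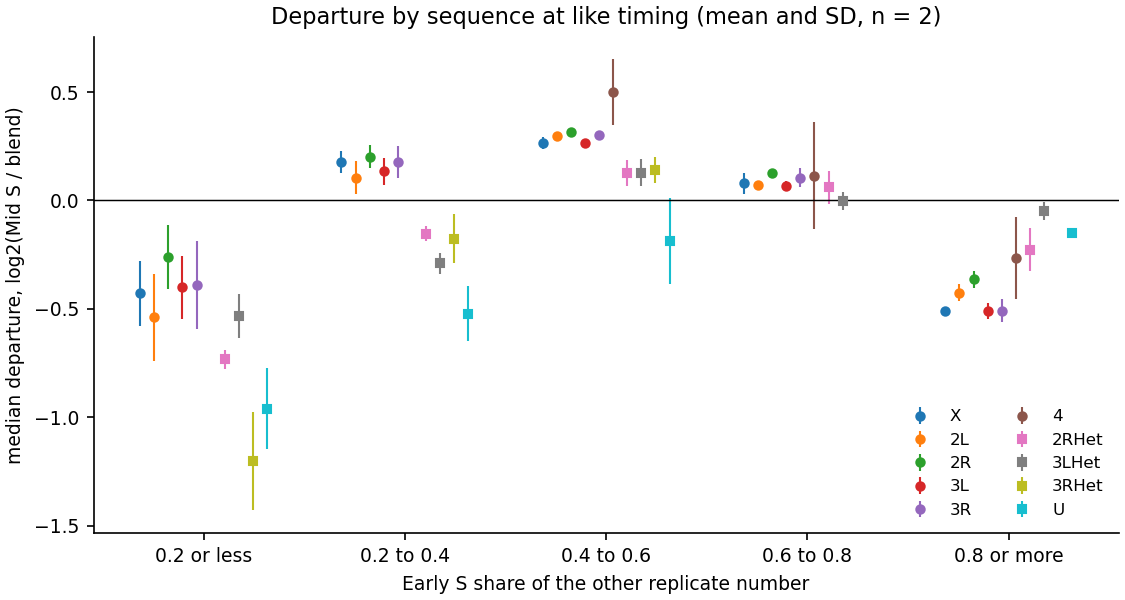
Median departure of Mid S from the blend on the log2 scale for each sequence within 5 classes of the Early S share of the other replicate number, for cells with enough windows; points are means and bars SDs of 2 replicates, circles for arms and squares for scaffolds and U. In the class of 0.4 to 0.6 the 5 long arms lie between 0.265 and 0.318, and in the class of 0.2 or less 3RHet lies lowest.

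Along the arms the departure changed over short distances. Its autocorrelation on the 5 long arms, taken for the mean of the replicates, was 0.851 at 10 kb, the shortest distance at which windows share no reads, 0.456 at 40 kb and 0.149 at 80 kb. Over 119 stretches of 1 Mb, the median departure was above 0 in both replicates in 73, below 0 in both in 34 and of opposite sign in 12. Arm 2R had 18 of its 21 stretches above 0 in both replicates, and 3L had 10 of 25 above and 11 below. The lowest stretch was on 2L, from 17000001 to 18000000, at -0.98 and -0.65, where the median Early S share was 0.106 and 75.8% of windows were called below. The next was the end of 3L by the centromere, from 24000001, at -0.83 and -0.59. The highest was on 3R, from 11000001 to 12000000, at 0.37 and 0.27 with 44.5% of windows called above, followed by the first 1 Mb of 3R, at 0.29 and 0.27.

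Called windows with a departure of at least 0.5 in size were gathered into blocks, joined over at most 2 windows, along the 5 long arms and chromosome 4. Coordinates are as in the files, counted from 1, with sequence names of the Release 5 type and no build stated, so no genes are named. Above the blend there were 641 blocks covering 12.1 Mb, short ones with a median of 15 kb and a longest of 100 kb, and 374 of them had an Early S share of 0.4 to 0.6. Below it there were 452 blocks covering 18.8 Mb, with a median of 22.5 kb and a longest of 435 kb, of which 212 had a share of at most 0.2 and 157 one of at least 0.8. Of the 47785 tested windows there, 11328 and 10240 had a share of 0.4 to 0.6 in replicate numbers 2 and 1. In the same order, 8203 and 8382 had at most 0.2, and 4096 and 6273 at least 0.8. Blocks are made of called windows, so these counts repeat the order of the calls by timing. Blocks above covered 12.1% of 2R and 8.09% of 3L, against 10.0% of the long arms and chromosome 4 together. Blocks below covered 19.95% of 2L and 9.91% of 2R, against 15.7% of these sequences together. On chromosome 4, 8 blocks above covered 19.8% of its length and 4 below covered 5.71%. At a departure of at least 1 in place of 0.5, blocks covered 0.05 Mb above and 4.105 Mb below.

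The longest block above the blend covered 100 kb of 3R, from 11895001 to 11995000. Mid S held 11.5 and 11.0 RPKM there in replicates 1 and 2, Early S 7.67 and 7.30, and Late S 7.14 and 7.47. All of its Early S and Late S values were below both Mid S values, and the departure was 0.63 and 0.57, with an adjusted p of at most 0.0131 in its called windows (limma). Blocks are made of called windows, so this p is no separate evidence for them. The next longest lay on 2R at 3887501 to 3950000, with 10.7 and 11.4 RPKM in Mid S, 6.52 and 5.90 in Early S and 7.74 and 8.07 in Late S. On 3R, the block at 4532501 to 4592500 had a departure of 0.66 and 0.48 at an Early S share of 0.609. A block of 57.5 kb on chromosome 4, at 815001 to 872500, had 6.76 and 7.66 RPKM in Mid S against a blend of 4.73 and 4.98.

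A block on X, at 2262501 to 2320000, was among the 5 longest and also among the 5 with the largest mean departure, at 0.81 and 0.70 in replicates 1 and 2. It held 6.80 and 6.17 RPKM in Mid S, 4.43 and 3.34 in Early S and 3.45 and 4.06 in Late S, so that Mid S was above both in both replicates. A short block on 2R at 2157501 to 2177500 had the largest mean, 1.35, but its levels were low, with 1.29 ± 0.0760 RPKM in Mid S and a blend of 0.575 (SD, n = 2), and its replicates differed, at 0.92 and 1.78. The remaining sites of that kind, of 20 to 47.5 kb, on 2R from 13100001, on 3L from 11595001 and on 2L from 13425001, had means of 0.73, 0.69 and 0.69. The 3L site lay on the early side, at a share of 0.660.

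The longest blocks below the blend were in late domains. The longest covered 435 kb of 2L, from 17540001 to 17975000, with 4.28 and 5.16 RPKM in Mid S replicates 1 and 2 against 16.6 and 16.2 in Late S and 1.90 and 1.66 in Early S. Its departure was -1.11 and -0.80, with an adjusted p of at most 0.0204 in its called windows (limma). On the same arm the block at 16962501 to 17280000 had a departure of -1.14 and -0.72, on X the blocks at 11975001 to 12245000 and at 14222501 to 14487500 had -1.03 and -0.67 and -1.08 and -0.75, and on 3R the block at 1847501 to 2117500 had -0.95 and -0.55. In all 5, replicate 1 lay lower than replicate 2. Against the geometric mean their mean departures were between -0.20 and -0.037, so that Mid S there was close to the average of Early S and Late S on a log scale.

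The blocks with the largest mean departure below the blend were in early domains, and they stayed below the geometric mean too. On X, at 3222501 to 3380000, Early S held 12.1 and 15.3 RPKM in replicates 1 and 2, Mid S 2.73 and 3.05, and Late S 1.04 and 1.51. The departure was -1.37 and -1.52, and -0.57 against the geometric mean. On 3L the block at 8625001 to 8735000 had 3.78 ± 0.484 RPKM in Mid S, while Early S held 18.8 ± 2.37 and Late S 1.67 ± 0.251 (SD, n = 2), a departure of -1.45 and -1.43. The other 3 were on 3L at 11177501 to 11372500 and at 92501 to 175000, with means of -1.35 and -1.33, and, with -1.31, on X at 5770001 to 5837500. Measured against the geometric mean these 5 lay between -0.63 and -0.51, and their Early S shares were 0.892 to 0.918.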

How the data were processed

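The authors deposited 1 value per window in RPKM for each library, per the file headers, plus 3 combined files that matched the mean of the replicates weighted by reads within 9.95e-14 RPKM and served as an alternative. The aligner, genome build, read filters and any input correction were not given in the sources used here. Values were whole multiples of 1 read, which gave the depths. No sample columns were left unused. Windows above 0 in at least 1 library were put on the log2(RPKM + 0.0341) scale, the pseudocount being the lowest value above 0, after the blend was averaged on the linear scale. The 2 Mid S and the 2 blend columns entered limma 3.58.1 in R 4.3.3 (lmFit, eBayes with trend, no block), with 2 residual and 24.6 prior degrees of freedom, two-sided, with Benjamini-Hochberg adjustment. Each blend column is the mean of 2 libraries and each Mid S column is 1 library, yet the fit gives them 1 variance per window. The adjusted p-values do not allow for this, nor for reads shared by overlapping windows. The fit was also run on simulated data whose windows were drawn independently. As real windows overlap, that run cannot show how well the adjusted p-values hold here. Medians by timing and sequence have no test. Tables and figures were made with NumPy 2.4.6, matplotlib 3.10.9, pandas 2.3.3 and SciPy 1.17.1 under Python 3.11.15. Named are the 10 timing bins, each sequence with at least 20 tested windows, and, in each direction on the long arms and chromosome 4, the 5 longest blocks and the 5 of at least 5 windows whose mean departure was largest; the stretches of 1 Mb were chosen after their values were seen. The comparison and its lists were chosen with earlier results of these data known. Alternatives were other pseudocounts, a filter on low signal, median and quantile scaling, a geometric blend, fitted weights, the other number's blend, a replicate block, windows without overlap and leaving out each library. Means over windows were an alternative to medians by sequence.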

Additional observations from a re-analysis of the deposited data

How the results depend on the processing

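Middle windows lay above the blend, and above the earliest and the latest windows, under each alternative that recomputed them. The departure of middle windows was 0.047 with libraries divided by their medians, 0.24 after quantile normalization and 0.31 against the geometric mean. The earliest windows were at -0.66, -0.55 and 0.0035 under these, and at -0.40 with the weights of the other replicate number. The latest were at -0.72, -1.09 and 0.083. The variance of Mid S matched by the blend was 37.6% with low windows left out, 38.1% with medians, 54.2% after quantile normalization, 58.3% against the blend of the other replicate number and 64.7% in the combined files. The Early S weight was 0.614 after quantile normalization. Windows above the blend numbered 688 with medians and 3673 with weights of the other replicate number. Those below numbered 16584 with medians and 799 with the geometric mean. Leaving out 1 library gave 0 to 2718 above and 0 to 6222 below, with the lone column assumed to vary like the other pair (limma). Sequences below the blend in both replicates numbered 12 with medians, 9 after quantile normalization, 9 by means over windows and 1 with the geometric mean, in place of 6. Windows above both fractions numbered 2362 with medians, and those below both 1607 with medians and 2832 after quantile normalization. Blocks above covered 28.2 Mb at a departure of at least 0.3 and 0.05 Mb at 1, and those below 4.105 Mb at 1.

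Replicate numbers are shared by the fractions, but nothing says that they mark a common culture or day. Deviations of Mid S and the blend with the same number correlated at 0.205 over windows. With the replicate number as a block, 10726 windows were above and 11398 below, which include all 7671 and 9389 called without it. Median scaling moves the median departure of all windows by -0.24, quantile normalization by -0.13 and the geometric blend by 0.20, so signs of departures smaller than these depend on the choice. Depth limits the scaffolds and U most, where many windows hold few reads.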
